A study of Drosophila melanogaster with 2 samples.

Results

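The Dpr and DIP genes of Drosophila melanogaster were examined for binding of the homeodomain protein bsh (brain-specific homeobox) in whole embryos. They were chosen by name from the protein-coding genes whose symbol is dpr with a number or begins with DIP-. The genes examined were 31, 21 Dpr and 10 DIP, of 13945 protein-coding genes on the chromosome arms. The rule uses no measured value. The data came from chromatin immunoprecipitation and sequencing with an antibody against GFP. The embryos, aged 0 to 24 h and of both sexes, came from a transgenic line that stably expressed bsh with GFP at its C-terminal end. There was 1 group of 2 biological replicates, and no control embryos were analysed here, so regions that would be found without the fusion protein were not separated. The age range and the whole-embryo material mix many cell types, and signal from a few neurons cannot be told apart from the rest.

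Dpr proteins (defective proboscis extension response) and DIPs (Dpr-interacting proteins) are cell surface proteins with immunoglobulin domains. Individual Dprs bind particular DIPs across the gap between neighbouring cells, and the pairs are known for their part in matching synaptic partners and in neuron survival. Neuron types express different combinations of them. The brain gene bsh is itself known as a regulator of neuron identity, including in the lamina of the optic lobe.

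The region lists were of 2 kinds on the genome build dm6. One, of 4447 regions, was limited by the irreproducible discovery rate (IDR), which scores whether a region ranks alike in both replicates. The other, a relaxed list called on the pooled reads, held 30000 regions, background among them, and its 4447 strongest regions were the IDR list. Each region has a summit and the authors' signal value, of a scale that the labels do not state. Read numbers are absent from the lists, and sequencing depth is therefore unknown. Genes were counted as bound where a summit fell inside them or less than 2 kb away, and "bound" stands for this alone. With 1 group and no control list, no test over samples was possible, and the counts and shares below are descriptions.

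Few Dpr and DIP genes held a region. An IDR summit lay at 4 of the 31: DIP-alpha, DIP-gamma, dpr14 and dpr20. That was 12.9%, with an exact 95% binomial interval of 3.63 to 29.8%. The share of all protein-coding genes, 24.9%, lies within this interval. A relaxed summit lay at 8 of the 31 (25.8%, interval 11.9 to 44.6%), against 59.8% of all genes, which is above the interval. The other 4 were dpr6, dpr8, dpr12 and dpr19. These intervals cover counting error alone and treat genes as independent.

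The remaining 23 genes held no relaxed summit. They were dpr1, dpr2, dpr3, dpr4, dpr5, dpr7, dpr9, dpr10, dpr11, dpr13, dpr15, dpr16, dpr17, dpr18 and dpr21 among the Dprs, and DIP-delta, DIP-epsilon, DIP-zeta, DIP-eta, DIP-theta, DIP-iota, DIP-kappa and DIP-lambda among the DIPs. IDR summits were at 2 of the 21 Dprs (9.52%) and 2 of the 10 DIPs (20%), and relaxed summits at 6 of the 21 (28.6%) and 2 of the 10 (20%).

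The sequences at the 4 IDR summits are shown because they are the regions of highest rank at the 31 genes examined. That at dpr19, the strongest of the genes without an IDR summit whose sequence is shown, is added for comparison. They are on the plus strand of dm6 and were read from the RefSeq copy of the assembly. Where a region was wider than 300 bases, the 300 around its summit are given. Capitals mark any of 4 words searched on both strands. The first is TAATTA, a core word of the homeodomain class. Its variant CAATTA is the next. The other words were GAGAGA, that of the GAGA factor, and ATCGAT, common at fly promoters. No sequence shown holds more than 1 of them, so none overlap.
DIP-alpha, chrX:3546190-3546465: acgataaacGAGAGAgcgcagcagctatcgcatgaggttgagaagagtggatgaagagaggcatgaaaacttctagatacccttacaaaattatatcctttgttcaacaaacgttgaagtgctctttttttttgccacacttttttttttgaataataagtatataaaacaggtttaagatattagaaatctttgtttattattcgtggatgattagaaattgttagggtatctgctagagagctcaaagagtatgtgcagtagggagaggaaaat
DIP-gamma, chr3R:28934437-28934639: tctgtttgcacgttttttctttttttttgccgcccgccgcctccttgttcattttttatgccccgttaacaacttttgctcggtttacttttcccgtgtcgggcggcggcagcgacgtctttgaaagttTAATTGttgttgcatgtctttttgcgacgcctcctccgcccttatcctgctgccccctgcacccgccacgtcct
dpr14, chrX:7908619-7908776: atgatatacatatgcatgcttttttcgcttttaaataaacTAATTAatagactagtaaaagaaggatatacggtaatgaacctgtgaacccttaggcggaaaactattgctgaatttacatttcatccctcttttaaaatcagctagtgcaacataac
dpr20, chr3L:857713-858012: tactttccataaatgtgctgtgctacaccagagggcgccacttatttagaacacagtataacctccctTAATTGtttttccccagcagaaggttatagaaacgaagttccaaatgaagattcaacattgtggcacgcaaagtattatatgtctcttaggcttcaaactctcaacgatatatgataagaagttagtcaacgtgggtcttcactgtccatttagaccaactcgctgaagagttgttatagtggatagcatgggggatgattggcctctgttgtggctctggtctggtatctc
dpr19, chr2L:10375648-10375947: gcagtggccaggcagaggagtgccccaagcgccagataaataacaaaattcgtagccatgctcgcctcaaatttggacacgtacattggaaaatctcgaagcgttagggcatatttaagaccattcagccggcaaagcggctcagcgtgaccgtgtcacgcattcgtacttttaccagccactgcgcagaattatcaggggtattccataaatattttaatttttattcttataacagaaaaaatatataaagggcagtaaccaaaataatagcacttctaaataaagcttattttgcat

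TAATTA occurred at dpr14 alone of these sequences. CAATTA occurred at DIP-gamma and at dpr20, in both as its reverse complement, and GAGAGA occurred at DIP-alpha. ATCGAT was in none of them, and the dpr19 sequence held none of the 4 words. Bases G and C made up 34.8% of the DIP-alpha region, 51.7% at DIP-gamma, 31.6% at dpr14, 42% at dpr20 and 41.0% at dpr19.

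DIP-alpha encodes the receptor of Dpr6 and Dpr10 in motor neurons and in the optic lobe. The gene spans 64405 bp (X, 3507245 to 3571649, minus strand) and had the strongest region of all 31 genes. Its IDR summit, at 3546343 in an intron, had a pooled signal of 370.5 and rank 579 of the 4447 IDR regions. The summit lay 25306 bp from the 5′ end of the gene. It was 15678 bp upstream of the gene's inner transcription start site (TSS). The nearest TSS of any protein-coding gene was 11469 bp away, that of ppk8, an ion channel subunit gene that overlaps DIP-alpha on the other strand.

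In the replicates the DIP-alpha region ranked 643 in replicate 1, with a signal of 206.6, and 536 in replicate 2, with 171.9. Both ranks were therefore well within the 4447 strongest. DIP-alpha also had the most relaxed summits, 6, all intronic. The second, at 3538990, had a signal of 80.3 and rank 8255. The other 4, between 3548298 and 3555651, had signals of 27.6 to 46.7 and ranks of 16956 to 29536. A further relaxed summit, at the promoter of CG2875, lay 2126 bp beyond DIP-alpha and so just outside the 2 kb limit.

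DIP-gamma encodes a receptor of Dpr11, and the pair is known from the connection of R7 photoreceptors with their targets. The gene spans 45369 bp (3R, 28925004 to 28970372, minus strand). Its IDR summit, at 28934538 in an intron, had a pooled signal of 181.9 and rank 2243. It lay 35834 bp downstream of the gene's TSS and 11494 bp from the TSS of CG11828, which overlaps the 3′ end of DIP-gamma. The region ranked 2551 in replicate 1 (signal 97.8) and 2212 in replicate 2 (signal 85.0). All 4 relaxed summits of DIP-gamma lay between 34024 and 35834 bp from the TSS. The 3 weaker ones had signals of 60.8, 42.7 and 30.1.

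**Figure D1:**
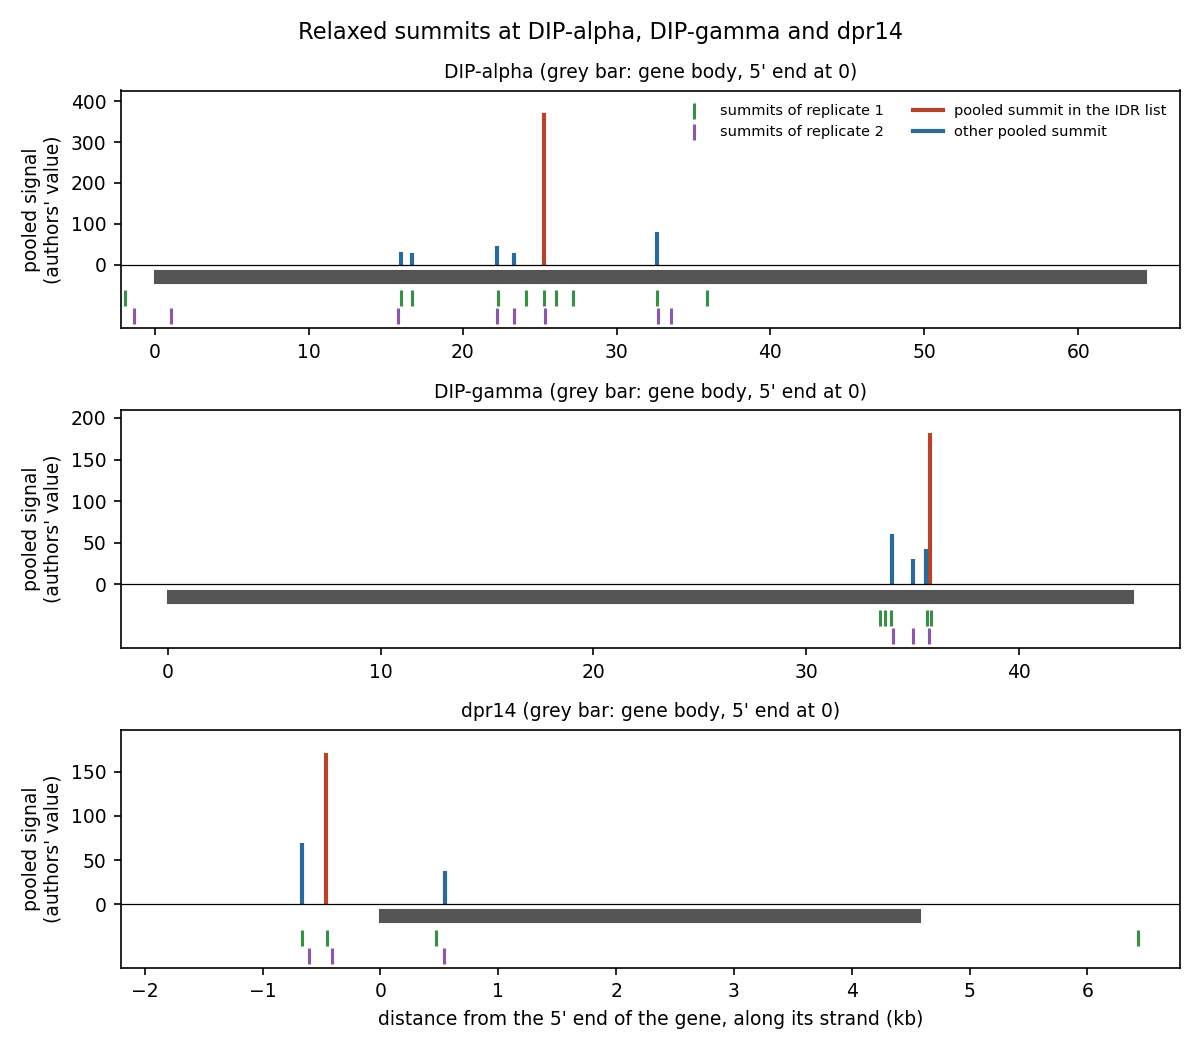
Pooled relaxed summits at DIP-alpha, DIP-gamma and dpr14 by distance from the 5′ end of each gene in kb (x axis), with line height the authors' signal value (y axis), red in the IDR list and blue otherwise. Ticks below mark the summits of replicate 1 (green) and replicate 2 (purple); the DIP-gamma summits sit together in the last part of the gene and the strongest dpr14 summits lie before its 5′ end.

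The gene dpr14 is short (4583 bp, X, 7903704 to 7908286, minus strand), and its IDR summit, at 7908752, lay 466 bp upstream of it. The summit was closer to the TSS of spidey, a steroid dehydrogenase gene on the other strand, at 179 bp. The pooled signal was 171.7, with rank 2479, and the ranks were 2883 in replicate 1 (signal 90.9) and 2356 in replicate 2 (signal 82.6). A second relaxed summit, of signal 69.3, lay 22 bp from the spidey TSS. The last lay 73 bp downstream of an inner TSS of dpr14 and had a signal of 37.3 and rank 21855. Of the 3 summits, the one at a TSS of dpr14 itself was thus the weakest.

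The gene dpr20 (4529 bp, 3L, 852720 to 857248, minus strand) held 1 relaxed summit, at 857862, 614 bp upstream of its TSS in intergenic sequence. It was the one IDR summit of the 4 with the gene's own TSS as the nearest. Its signal was 126.6 and its rank 4088, close to the end of the IDR list, where the lowest signal was 119.6. In replicate 1 the region ranked 4448 (signal 70.1) and in replicate 2 it ranked 4980 (signal 53.9). Both ranks were just outside the 4447 strongest of each replicate, so 3 of the 31 genes were bound in each replicate on its own. That was 9.68%, against 24.75% of all genes in replicate 1 and 25.98% in replicate 2.

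**Figure D2:**
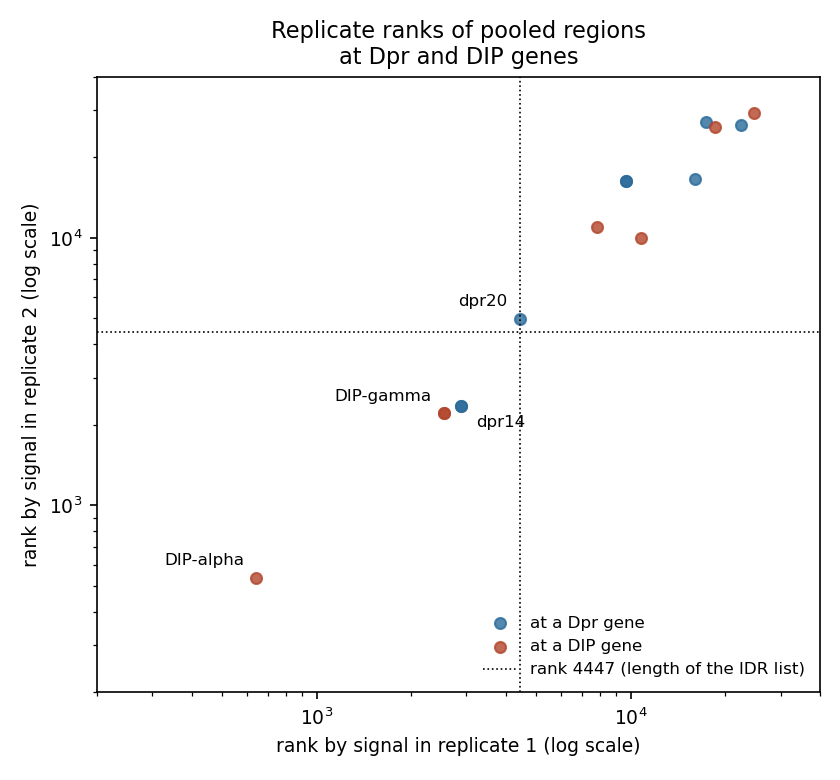
Rank by signal in replicate 1 (x axis, log scale) and replicate 2 (y axis, log scale) of the 15 pooled relaxed regions at Dpr (blue) and DIP (red) genes that overlapped a region in both replicates; some points coincide because neighbouring pooled regions match the same replicate region. The dotted lines mark rank 4447, within which the DIP-alpha, DIP-gamma and dpr14 regions lie in both replicates.

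The 4 genes with relaxed summits alone had weak regions. At dpr19 (3738 bp, 2L, 10376168 to 10379905, plus strand), the shortest of the 31 genes, the strongest of 3 summits had a signal of 66.5 and rank 10760. It lay 40 bp from the TSS of CG33303 and 371 bp upstream of dpr19. Another lay 71 bp upstream of the dpr19 TSS (signal 44.4, rank 17964), and the last 53 bp from the TSS of gny, its neighbour at the 3′ end (signal 46.5, rank 17029). All 3 overlapped regions in both replicates, with ranks of 9646 to 16579. For the summit at the dpr19 TSS, the match in replicate 2 was the region at the CG33303 promoter (rank 16303). Another replicate 2 summit, 145 bp from a dpr19 TSS (rank 17746), was in a region that overlapped no pooled one.

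In dpr12, which encodes a Dpr that binds DIP-delta, 2 overlapping regions lay in an intron (2R, summits at 5841310 and 5841534, signals 55.2 and 46.5). They matched a region of rank 11824 in replicate 2 and none in replicate 1, which had a summit elsewhere in the gene (5845348, rank 8940). The gene spans 56120 bp (2R, 5804712 to 5860831, plus strand). In dpr8 (140126 bp, X, 14322226 to 14462351, plus strand) an intronic summit 17051 bp from the TSS had a signal of 38.9 and rank 20846. It matched rank 22133 in replicate 1 and none in replicate 2.

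At dpr6, which encodes a partner of DIP-alpha and is the longest of the genes after DIP-lambda (164710 bp, 3L, 9974651 to 10139360, plus strand), the 1 relaxed summit lay outside the gene. It was 1775 bp upstream, 120 bp from the TSS of vnc, with a signal of 41.9 and rank 19187. No pooled summit lay inside dpr6. Its neighbour dpr10, the other known partner of DIP-alpha, starts 8093 bp beyond it, and no pooled summit lay in or within 2 kb of dpr10. From the dpr6 summit to the next pooled summit beyond dpr10 there was a stretch of 225744 bp without one. The receptor gene DIP-alpha held the strongest region among the 31 genes examined. Its partner genes dpr6 and dpr10 held no pooled summit in their bodies, but few members did. A relaxed summit lay in the body of 5 of the 31 (16.1%, against 35.6% of all genes). Replicate 1 on its own had 2 summits in dpr10.

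Other neighbouring members lay together in stretches without summits. DIP-eta and DIP-theta, 8344 bp apart on 2L, lay in one stretch of 178209 bp free of relaxed summits. The pair dpr5 and dpr4 on 3R, 27531 bp apart, lay in one of 107585 bp. Between dpr17 and dpr15, 27412 bp apart on 3R, there was 1 relaxed summit, 3090 bp beyond dpr15. Of the partner genes named above, dpr11 (DIP-gamma) lay 66081 bp from the nearest relaxed summit and dpr12 (DIP-delta) held 2. DIP-delta itself lay 58338 bp from one. The partners of these receptors were not compared as a set.

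The members are long genes, with a median length of 32270 bp against 2166 bp for all genes, and the background was therefore also taken by length. Among all genes from 3738 to 379081 bp, the range of the 31, 40.9% had an IDR summit and 74.7% a relaxed one. Of the 8 Dpr and DIP genes under 10 kb, 2 had an IDR summit and 3 a relaxed one, against 20.6% and 56.8% of all genes of that length. Of the 14 from 10 to under 50 kb, DIP-gamma alone had either, against 48.7% and 78.0%. Of the 9 genes of 50 kb or more, 1 had an IDR summit and 4 a relaxed one, against 60.9% and 79.2%. In the shortest class the IDR share of the members, 25%, was near the background, and in the longer classes both shares were below it.

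**Figure D3:**
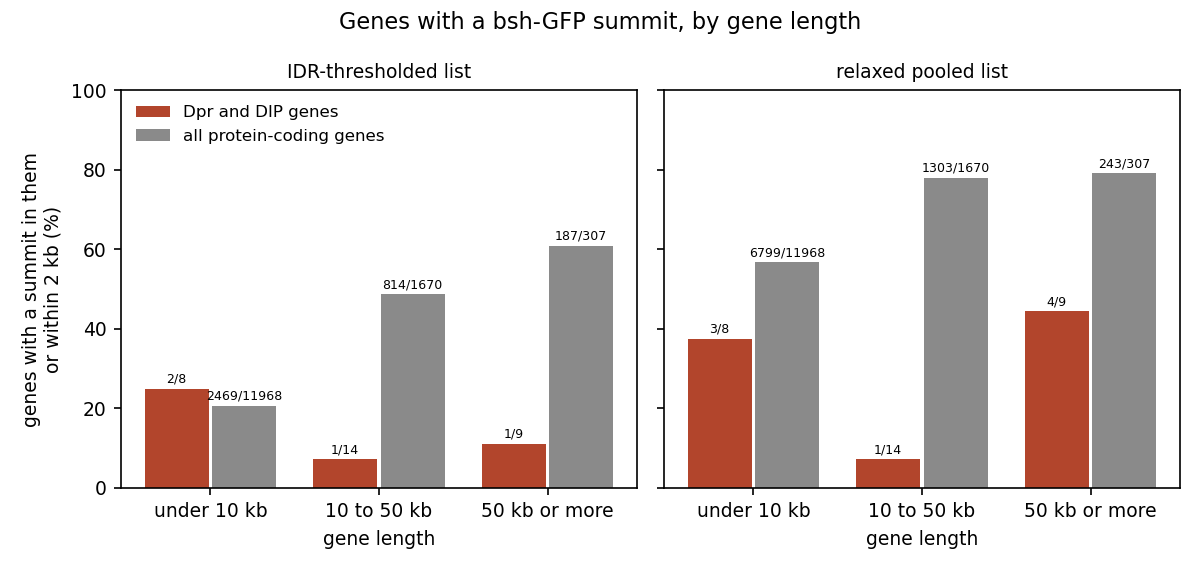
Share of genes (y axis, percent) with a summit in them or within 2 kb, for Dpr and DIP genes (red) and all protein-coding genes (grey) in 3 classes of gene length (x axis), in the IDR list (left) and the relaxed pooled list (right). Numbers above the bars are genes with a summit over genes in the class; from 10 kb upwards the red bars are at 7.14 to 44.4% and the grey bars at 48.7 to 79.2%.

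Counted per length, 21 relaxed summits lay in the 1.67 Mb made up of the 31 genes and 2 kb on each side. This was 1.26 summits per 100 kb, against 24.9 per 100 kb in the same territory of all genes and 26.7 for genes of the members' length range. Some of the 21 summits belong to overlapping regions and may mark the same site. With overlapping regions counted once, the density was 1.02 per 100 kb, against 19.4 for all genes. Replicate 1 on its own had 34 summits (2.04 per 100 kb, against 24.7 for all genes) and replicate 2 had 25 (1.5 against 25.2). In the IDR list the value was 0.24 per 100 kb, against 3.81 for all genes. The median number of relaxed summits per gene was 0 in the families, 1 over all genes and 3 over genes of their length range.

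Of the 21 relaxed summits, 10 belonged to DIP-alpha and DIP-gamma. Without DIP-alpha the relaxed density was 0.938 per 100 kb. DIP-lambda, the longest member (379081 bp), and dpr21 (124513 bp) lie in the centromere-proximal part of 2R, and the nearest relaxed summits were 1860501 and 500150 bp from them. Leaving these 2 genes out gave 1.82 per 100 kb. Whether reads can be placed in that part of the arm was not tested.

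Distance from the start sites needs no fixed window, but it was taken from the same lists and genes. Long distances follow in part from the low density of summits and are no separate support. The median distance from a member's nearest TSS to the nearest relaxed summit was 22017 bp (range 71 to 2239581), against 1177 bp for all genes and 222.5 bp for genes of the same length range. Genes in that range were shorter than the members, with a median length of 8452.5 bp against 32270 bp. For 28 of the 31 genes the distance was above the median of all genes, and for 24 it was above their upper quartile of 9090 bp. For IDR summits the medians were 54373 bp and 11517 bp. The 3 genes nearer than the median of all genes were dpr19 (71 bp), dpr14 (73 bp) and dpr20 (614 bp), which are among the 4 shortest members. DIP-iota, the other of the 4 with 4567 bp, was 7786 bp from one.

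**Figure D4:**
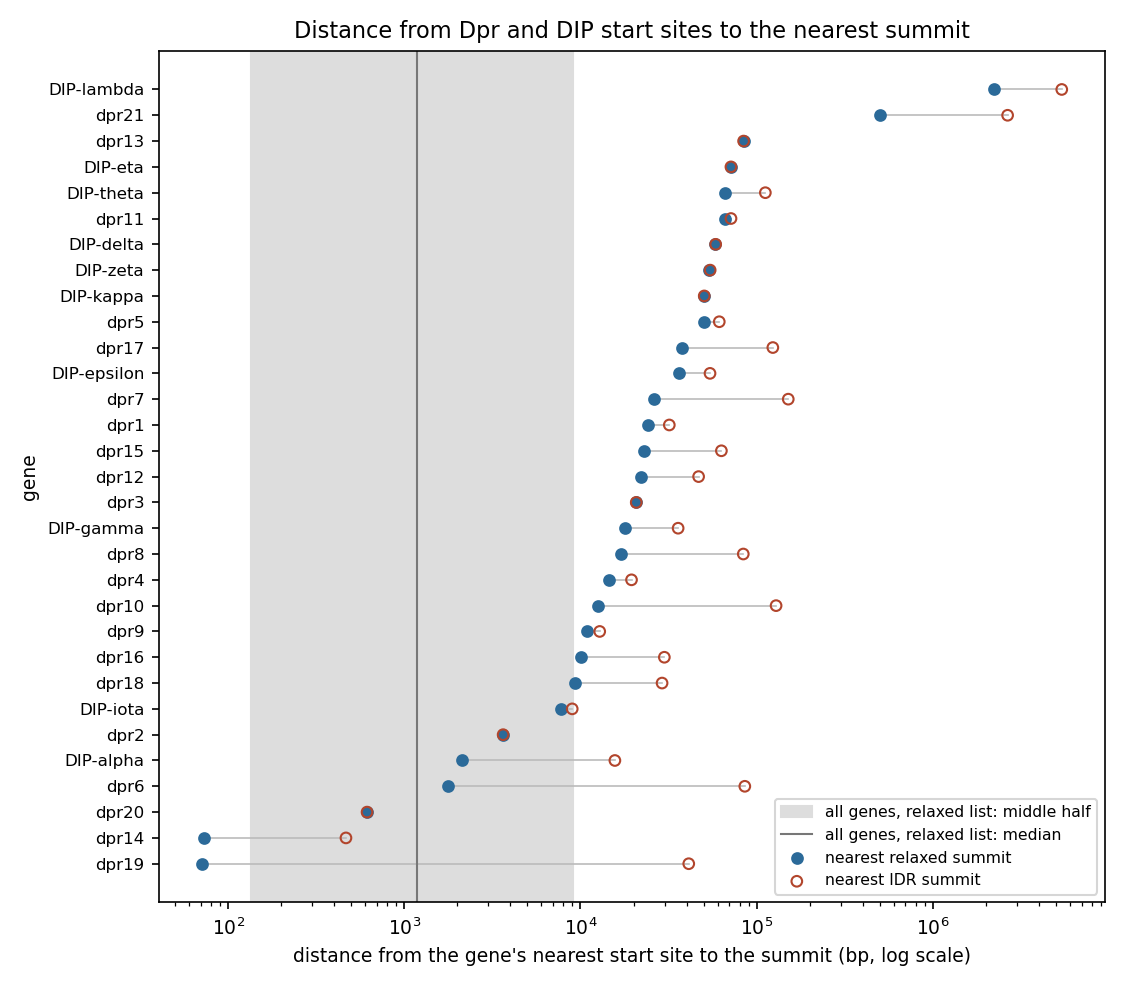
Distance in bp (x axis, log scale) from the nearest TSS of each Dpr and DIP gene (y axis) to the nearest relaxed summit (blue) and the nearest IDR summit (open red). The grey band and line give the interquartile range and median of the relaxed distance over all genes; 24 of the 31 blue points lie beyond the band's upper edge of 9090 bp.

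The 23 genes without a relaxed summit were set in long empty stretches. In 22 of them, with summits on both sides, the stretch free of relaxed summits had a median of 114000 bp and a range of 30834 to 1704461 bp. For genes of the members' length range without a relaxed summit the median was 63199 bp. Each stretch includes the gene itself, and these genes were shorter, with a median length of 7263 bp against 22277 bp. Neighbouring members in the same stretch were each counted. Longest among the stretches, that round dpr21 ended 500150 bp to one side of it and 1079798 bp to the other. Apart from dpr21 and DIP-lambda, the genes more than 50 kb from any relaxed summit were DIP-theta (66340 bp), dpr11 (66081 bp), DIP-delta (58338 bp), DIP-eta (55031 bp), DIP-zeta (53373 bp), dpr13 (51707 bp) and dpr5 (50111 bp).

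A few genes without a summit lay close to strong regions of their neighbours. The summit of rank 6 in the whole pooled list, with a signal of 1599.8 (2L, 6612413 to 6612921), lay in an intron of CG11050, 4408 bp beyond DIP-iota. For dpr2, an IDR summit of signal 231.5 and rank 1490 at the promoter of Tmem214 lay 3637 bp upstream. The nearest relaxed summit to dpr18 lay 2746 bp downstream at the promoter of Nipsnap, with a signal of 100.7. With a limit of 5 kb, IDR summits would be counted at 6 of the 31 genes, DIP-iota and dpr2 being added. That was 19.4%, against 36.2% of all genes under the same limit. Relaxed summits would be counted at 12 (38.7%, against 69.6%).

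The 21 relaxed summits were chosen for lying in a gene or within 2 kb of one, which 85.6% of all 30000 do, so a low intergenic share and a high intronic share follow in part from the choice. The shares are given as a description, and summits of overlapping regions were counted separately. Introns held 13 (61.9%, against 45.7% of all relaxed summits) and promoters, within 500 bp of any protein-coding TSS, held 7 (33.3%, against 27.4%). The promoter share did not stand above that of all summits under every setting: in replicate 2 on its own it was 28.0% against 28.3%, and with promoters of up to 200 bp it was 33.3% against 17.0%. Intergenic sequence held 1 (4.76%, against 21.1%), and coding exons and untranslated regions held 0, which allows a share of up to 14.3% each. Of the 7 promoter summits, 2 were nearest to the member's own TSS (dpr14 and dpr19) and 5 to that of a neighbour. Over all 21, the member's own TSS was nearest in 7 cases.

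The X chromosome held 10 of the 21 summits, and 6 of these were at DIP-alpha. Of its 4 members, DIP-alpha, dpr8 and dpr14 had a relaxed summit and dpr18 did not. Of the 27 members on other arms, 5 had one. The share of all genes with a summit was not taken by arm, so these counts have no background beside them. A difference between the arms was not tested. Relaxed summits in all were about as dense on X, at 21.1 per 100 kb, as on the other arms, at 21.2 to 24.6. That is a density of summits and not a share of genes, so it gives no background for these counts.

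Of the 21 pooled regions, 15 (71.4%) overlapped a region in the relaxed list of both replicates, against 75% of all pooled regions, 2 overlapped one in replicate 1 alone and 4 in replicate 2 alone. Among the weaker 15000 regions of the relaxed list the shares were 58.3% (7 of 12) and 53.9%. Among the regions between the IDR list and these, they were 80% (4 of 5) and 94.7%. Replicate 1 on its own had a summit at 11 of the 31 genes (35.5%, against 61.9% of all genes) and replicate 2 at 9 (29.0%, against 61.6%). The replicate lists thus added 4 genes to the 8. Replicate 1 had summits at dpr7 (ranks 22204 and 22616), dpr10 (ranks 10091 and 24954, 4475 and 4265 bp from its TSS) and DIP-epsilon (rank 16108). Replicate 2 had one in dpr18 (rank 20190). None of these was in the pooled list or overlapped a region of the other replicate. The other 19 genes had no summit in any of the 3 relaxed lists.

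The homeodomain word was also counted in the members' gene bodies. They held 1263 copies of TAATTA, 0.818 per kb, against 0.672 per kb over all genes. Counted gene by gene, it was 0.722 per kb in genes of the members' length range. A link of these values with the number of summits was not tested. None of the 1263 was within 100 bp of a relaxed summit. As 14 relaxed summits lay in the bodies of these genes, this count follows largely from the low density of summits and says nothing of the word itself. Within 100 bp of the 21 summits, TAATTA was present at 2 (9.52%), those of dpr14 and dpr6, both outside the gene. It was present at 12.4% of all relaxed summits and in 9.39% of windows of the same width at protein-coding TSSs. The order depended on the setting: in replicate 1 on its own the share was 17.6% at the members' summits and 12.5% at all, and within 200 bp of pooled summits it was 9.52% and 22.5%. CAATTA was at 6 summits (28.6%, against 17.0% of all relaxed summits and 14.5% of TSS windows). GAGAGA was at 2 (9.52%, against 11.9% and 9.74%) and ATCGAT at 2 (9.52%, against 5.67% and 16.4%). Bases G and C made up a median of 40.8% of the windows at member summits and 41.3% at all relaxed summits, and 41.1% of the members' gene bodies against 43.0% of all genes'.

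Other surface proteins of the immunoglobulin type were counted in the same way. The 22 Beat and Side genes encode another network of interacting neuronal surface proteins used in axon guidance. Of these, 2 had an IDR summit (9.09%, against 24.9% of all genes) and 10 a relaxed one (45.5%, against 59.8%). These 2 were beat-Ib, with a highest signal of 244.5, and side-IV, with 250.5. In the 4447 strongest regions of each replicate, the count was 5 of 22 in replicate 1 (22.7%) and 2 in replicate 2. The relaxed density of the Beat and Side genes was 4.27 per 100 kb, against 1.26 for the Dpr and DIP genes and 24.9 for all genes. In the IDR list it was 0.291, near the 0.24 of the Dpr and DIP genes, against 3.81 for all genes. A low IDR density was thus not particular to the Dpr and DIP genes. Of 5 relatives and partners of the Dpr and DIP proteins, Lac (127.3) and wrapper (138.3), a glial gene, had an IDR summit, Ama had relaxed summits, and klg and cDIP, which encodes a secreted protein that binds Dprs and DIPs, had neither. In the strongest regions of replicate 1 none of these 5 was counted, and in those of replicate 2 again 2. Whether these families differ was not tested.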

How the data were processed

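ChIP-seq against GFP was analysed in 2 biological replicates of bsh-GFP embryos. Per the labels, chromatin was sonicated to 200 to 800 bp. Per the file records, relaxed region lists were made by the authors per replicate and on pooled reads, besides the IDR list. Aligner, caller and IDR threshold were not given in the sources used here. Signal values, as deposited, were used to rank and describe regions within a list. The deposited q-value is on the −log10 scale and was used in 1 alternative. The deposited summit offset, a further column, placed the summits. The p-value column holds a placeholder, and lists on dm3 were not used here.

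Genes came from Ensembl release 115 (BDGP release 6, the dm6 assembly) and sequence from the RefSeq copy. Coordinates are 1-based. Locations were assigned in the order promoter, coding exon, 5′ UTR, 3′ UTR, intron, intergenic. Regions matched where they overlapped by at least 1 bp. Words were searched on both strands within 100 bp of summits. Software was pandas 2.3.3, numpy 2.4.6, matplotlib 3.10.9 and scipy 1.17.1 under Python 3.11.15, and the functions were tested on simulated data.

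Genes and lists were chosen with earlier results of these data known. Genes described in full were those with an IDR summit and the 10 of highest relaxed signal (8 had any); those with none, the longest and shortest, and those with the most summits were named. Genes outside the families were named where they lie at a member's summit. Those at summits just outside the 2 kb limit were chosen after their values were seen. Of the genes that meet the naming rule, 1 DIP gene is not reported here, and statements on the families cover the 31 genes examined.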

Additional observations from a re-analysis of the deposited data

How the results depend on the processing

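Of 40 alternative values, 32 stayed within the stated range of the main one (1.5 times for counts and densities, the 95% binomial interval for shares). The 8 that moved were all among the 29 counts and densities. For shares the interval rests on 21 summits and is wide (1.18 to 30.4% for TAATTA). A share could therefore hardly leave it, and staying within it says little on stability. All 29 alternatives of the counts and densities were below the value of all genes under the same setting. IDR summits were counted at 4 of the 31 genes in the main setting. With the gene body alone they were counted at 2 (6.45%, against 11.6% of all genes). Within 1 kb of a TSS of the gene they were counted at 2 (6.45%, against 15.1%). They were counted at 1 by nearest TSS (3.23%, against 16.9%) and at 1 in the stronger 2223 regions (3.23%, against 15.1%). The IDR density fell to 0.13 per 100 kb in gene bodies. Relaxed summits were counted at 8 genes in the main setting. With the gene body alone they were counted at 5 (16.1%, against 35.6% of all genes). Within 1 kb of a TSS they were counted at 3 (9.68%, against 48.8%). The relaxed density was 1.5 to 2.04 per 100 kb with each replicate left out. Fewer genes follow by construction from a narrower rule, and other causes were not tested. The densities without DIP-alpha, and without DIP-lambda and dpr21, were chosen after seeing the data. As depth is unknown, signals were not compared across lists. No paired analysis was possible because only 1 group was sampled.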
